A study of Mus musculus with 24 samples.

Results

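The miR-15 and miR-16 strands were followed through eyes of C57BL/6J mice on 24 one-colour miRNA arrays. The 6 members were found by their names in the scanner files, among 696 mouse miRNAs on each array. They comprised 4 bright 5p strands (mmu-miR-15a-5p, mmu-miR-15b-5p, mmu-miR-16-5p and mmu-miR-195-5p) and 2 dim 3p strands (mmu-miR-15a-3p and mmu-miR-16-1-3p), written below without the mouse prefix. The 3p strands were chosen by their measured signals, which differed between arms and tissues of these same arrays, so those differences are described without a test. The 5p strands were taken as their bright partners and relatives and were tested.

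Form deprivation blurs an eye's image and leads it to grow too long. It was produced with a diffuser worn over the right eye for 10 days from postnatal day 24, and the undisturbed left eye of the same animal was the control; all mice were 34 days old at collection. The groups were whole eye myopia (6 arrays) and whole eye control (6), retina titled myopia (3) and retina titled control (3), and sclera titled myopia (3) and sclera titled control (3). The labels give 6 mice for whole eye and 9 each for retina and sclera, out of 15, and tie no array to an animal. By these counts retina and sclera share mice, and the fits between tissues took their arrays as independent. The p-values rest on array-to-array spread, part of which can be technical.

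For retina and sclera the sample titles name the arms the other way round from the source name and phenotype fields, and the direction of every arm difference in these tissues is therefore unsettled. For whole eye the title, source name and phenotype field name one arm and a sentence in the description names the other. Each of the 3 slides held 8 arrays, and each position on a slide held 1 group, so position and group cannot be told apart. Between 274 and 401 miRNAs were detected per array. Retina arrays carried the miRNAs of retinal neurons, with 6 of 6 higher in retina than in sclera, and sclera arrays those of fibroblasts and mesenchyme, with 7 of 7 lower in retina. Of the 426 miRNAs tested, 58.7% were called higher and 30.5% lower in retina. Also lower in retina were 3 of 3 miRNAs of skeletal muscle, 3 of 3 of lens and cornea, and 4 of 5 of leukocytes (1 higher). Of 2 erythrocyte miRNAs 1 was lower, and 2 of 2 of pigment epithelium were higher. Sclera titled control replicate 3 was the array with 274 detected miRNAs and had the dimmest signals of the 5p strands.

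A miRNA precursor is a folded hairpin that is cut into a short duplex. One strand of the duplex, the guide, is usually loaded into an Argonaute protein and pairs with target messages through its seed, bases 2 to 8 from the 5′ end, while the minor strand is mostly degraded. The miR-15 and miR-16 guides are known for lowering cell cycle proteins such as cyclins and the survival protein BCL2, and in humans the locus of miR-15a and miR-16-1 is often lost in chronic lymphocytic leukaemia. In mouse, the RefSeq gene table places Mir15a and Mir16-1 inside the interval of Dleu2, a long non-coding RNA gene, and Mir15b and Mir16-2 inside that of Smc4, a condensin subunit gene. Mir195a has Mir497 as its neighbour. Both Mir16 hairpins give the same 5p strand, so the array cannot tell which of them a miR-16-5p signal came from.

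The mature strands are shown because the 5p strands share a seed and the 3p strands do not. Sequences are from RefSeq (GRCm38.p6), 5′ to 3′, and all 6 members were matched. miR-195-5p was matched to the entry named miR-195a-5p, whose gene has mir-195 as a synonym. Capitals mark the seed.
miR-15a-5p: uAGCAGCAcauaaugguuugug
miR-15b-5p: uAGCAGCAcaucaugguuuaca
miR-16-5p: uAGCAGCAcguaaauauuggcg
miR-195-5p: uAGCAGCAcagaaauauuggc
miR-15a-3p: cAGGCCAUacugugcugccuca
miR-16-1-3p: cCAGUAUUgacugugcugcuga

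In that build miR-15a-5p lies at chr14:61632075-61632096 and miR-15a-3p at chr14:61632038-61632059, both on the minus strand. The strands miR-16-5p at chr14:61631936-61631957 and miR-16-1-3p at chr14:61631894-61631915 lie close by, also on the minus strand. The seed AGCAGCA was common to all 4 5p strands, which were identical over their first 9 bases. Only the 3′ part set them apart: miR-15a-5p and miR-15b-5p matched at 18 of 22 aligned bases, and miR-16-5p and miR-195-5p at 19 of 21. Of the 1679 mature names in the RefSeq table, 10 carried this seed. The 3p seeds AGGCCAU and CAGUAUU were each carried by 1 name.

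The hairpin of Mir16-1 is shown because it holds a bright and a dim member on opposite arms of one fold. Capitals mark the 2 mature strands, miR-16-5p first and miR-16-1-3p second, at chr14:61631880-61631972 on the minus strand.
Mir16-1: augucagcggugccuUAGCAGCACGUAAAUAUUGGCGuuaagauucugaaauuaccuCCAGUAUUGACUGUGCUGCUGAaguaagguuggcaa

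The array reads a strand through short probes complementary to its 3′ end. The longest probes of the 3p strands are shown because they have a stretch in common, marked in capitals.
miR-15a-3p probe: tgagGCAGCACAGTat
miR-16-1-3p probe: tcaGCAGCACAGTca

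The shared stretch was 10 bases long. The miR-16-1-3p probe was also complementary to 10 bases of miR-195a-3p and 9 of miR-16-2-3p, and the miR-15a-3p probe to 9 bases each of miR-195a-3p, miR-103-1-5p and miR-103-2-5p. Whether the probes bound a related strand was not tested. Each 3p strand had 4 probes of 12 to 16 bases with 5 spots each. Each 5p strand had 2 probes of 17 to 22 bases with 10 spots each.

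Values are given on 3 scales. Signal is the background-subtracted scanner brightness summed over a miRNA's probes, and a value near 0 or below it is background. Relative signal is that sum over the array's own 75th percentile, which was taken from the miRNAs detected on every array of the fit. Log2 difference compares group means of the relative signal after a floor and a log2 step. A miRNA's brightness depends on its probes, so strands are not ranked by level, and a ratio of 2 strands is read only for how it changes between arrays.

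In whole eye, both 3p strands were brighter on every myopia array than on any control array. miR-15a-3p, the minor strand of the miR-15a duplex, had signals of 22.2, 56.1, 21.5, 33.4, 73.7 and 32.7 on myopia arrays 1 to 6, against -7.46, 0.853, 3.97, -4.65, -2.42 and -1.62 on control arrays 1 to 6. It was called detected on 3 of 6 myopia arrays (replicates 2, 5 and 6) and on 0 of 6 control arrays. miR-16-1-3p, the minor strand of the Mir16-1 duplex, had 15.7, 40.5, 23.9, 23.2, 49.7 and 31.1 on the myopia arrays, against -13.4, -3.72, -0.257, -6.57, -2.54 and -3.24 on the control arrays. It was detected on the same 3 myopia arrays and on no control array. Replicates 2 and 5, both on slide 2, were the brightest for each strand. Fewer cells that make a strand and less of it per cell cannot be told apart in these bulk samples.

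Because the control arrays gave only background, the fold depends on the limit set for them. For each control array it was taken against the lowest detected signal of that array, or against the floor or the strand's own signal where one of these was higher. With this limit it was 3.86-fold for miR-15a-3p and 3.07-fold for miR-16-1-3p. The lowest detected signal is that of any miRNA and not a detection limit of these strands. On myopia replicate 4 it was 7.30, while miR-15a-3p at 33.4 was not called detected. With 3 of 6 arrays detected, neither strand entered the set of 341 miRNAs tested in whole eye. Within slides 1, 2 and 3 the log2 difference of floored means was 1.75, 2.79 and 1.65 for miR-15a-3p and 1.24, 2.27 and 1.69 for miR-16-1-3p. Over all miRNAs, 5.03% were higher on every myopia array than on any control array and 0.0% lower, on the scale of all 24 arrays. The members were chosen for this difference, so the share is given as background only. The size depended on the processing: with normexp correction the log2 difference was 0.21 for miR-15a-3p and 0.19 for miR-16-1-3p. That correction adds an offset of 50 to every spot, which is large beside these signals. The part of the offset in the smaller values was not tested. The log2 difference was 0.89 and 0.41 with the scanner files' total gene signal, and 1.15 and 1.14 in the authors' value table. With a floor 2 times higher it was 1.06 and 0.73.

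The retina held the highest 3p signals of the series. miR-15a-3p gave 615, 870 and 390 on titled myopia arrays 1 to 3, against 404, 75.8 and 24.1 on titled control arrays 1 to 3. It was detected on 3 of 3 titled myopia and 2 of 3 titled control arrays. miR-16-1-3p gave 687, 955 and 462 on titled myopia arrays, against 443, 70.5 and 28.2 on titled control arrays, with the same detection calls. Titled control replicate 1 lay near the titled myopia arrays: it overlapped them for miR-15a-3p and fell just under the lowest of them for miR-16-1-3p.

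The retinal log2 difference, titled myopia minus titled control, was 2.54 for miR-15a-3p and 2.63 for miR-16-1-3p. It depended on single arrays, as it was 3.55 and 3.67 without titled control replicate 1 and 1.48 and 1.65 without titled control replicate 3. On slides 1, 2 and 3, with 1 array per arm each, it was 0.52, 2.88 and 4.22 for miR-15a-3p and 0.55, 3.12 and 4.24 for miR-16-1-3p. By the phenotype field the signs would be turned. For comparison, 4.02% of all miRNAs were higher and 2.87% lower on every titled myopia array than on any titled control array in retina. With normexp correction, which adds the same offset to every spot, the differences were 0.51 and 0.62.

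In sclera neither strand was detected on any of the 6 arrays. miR-15a-3p signals were -3.80, 1.68 and -4.46 on titled myopia arrays, against -1.77, -2.89 and 2.24 on titled control arrays. Those of miR-16-1-3p were -12.0, -6.38 and -5.69 on titled myopia arrays, against -11.2, -11.9 and -1.45 on titled control arrays. No arm difference can be given there. With the same kind of limit for the sclera arrays, retina over sclera, all arms together, was 20.9-fold for miR-15a-3p and 22.9-fold for miR-16-1-3p. This limit again was not a detection limit of these strands. Retina titled control replicate 3, at 24.1 and 28.2, was not called detected, although its lowest detected signal of any miRNA was 0.548. Every retina array was above every sclera array for both strands, as was the case for 38.2% of all miRNAs, and 16.5% lay below. Taken alone and with that limit, retina titled myopia stood 51.2-fold and 58.1-fold over sclera, and retina titled control 8.49-fold and 9.00-fold. The titled control folds rested on single arrays: they were 3.91-fold and 4.08-fold without replicate 1, and 16.87-fold and 17.03-fold without replicate 3. The folds of all retina arrays were 32.9-fold and 35.5-fold without titled control replicate 3, and 16.8-fold and 18.4-fold at the lowest, without titled myopia replicate 2. The measured log2 difference of retina minus sclera was 4.75 and 4.90, against 4.14 and 4.27 without titled control replicate 1. With normexp correction, which adds an offset and moved the median of all tested miRNAs to -0.85, the log2 difference of retina minus sclera was -0.26 for miR-15a-3p and -0.17 for miR-16-1-3p.

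**Figure D1:**
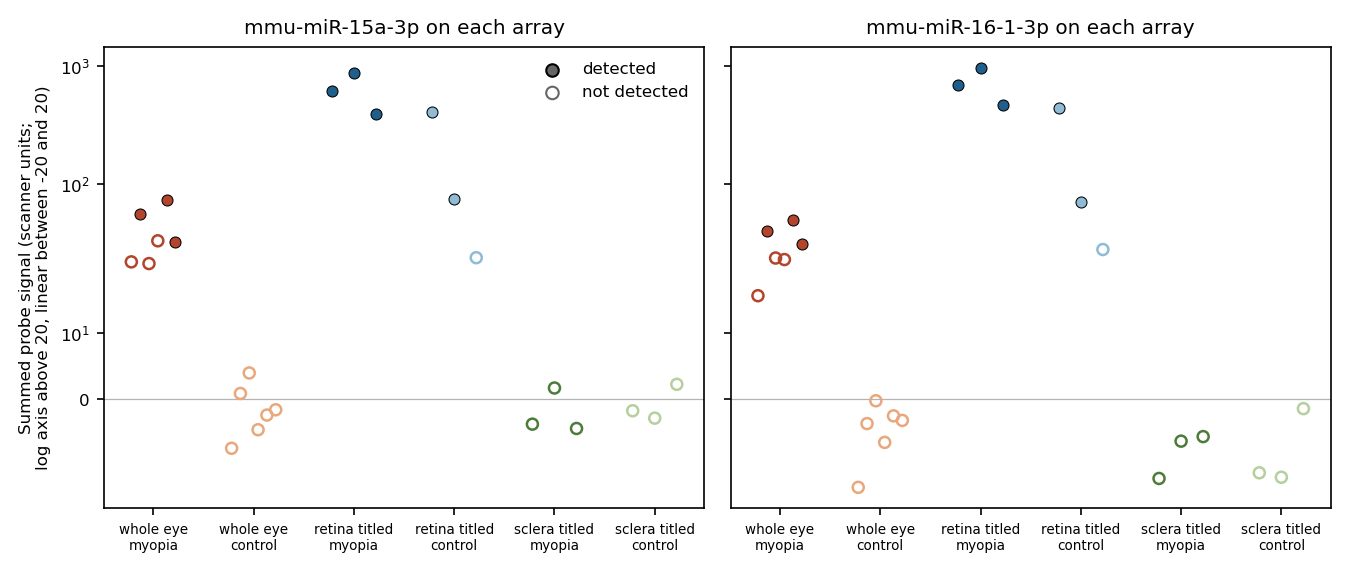
Summed probe signal of miR-15a-3p (left) and miR-16-1-3p (right) on each of the 24 arrays by group, in scanner units, on an axis that is logarithmic above 20 and linear below it. Filled points are arrays where the strand was called detected: 3 of whole eye myopia and 5 of retina, with whole eye control and sclera arrays at background.

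The 2 dim strands moved together from array to array. Both were detected on the same 8 arrays, and the calls matched on all 24. The signal of miR-16-1-3p over that of miR-15a-3p lay between 0.930 and 1.18 on the 5 retina arrays and between 0.674 and 0.951 on the 3 whole eye arrays. Over all 24 arrays their log2 levels correlated with Pearson r = 0.995. Both strands sat at the floor on 11 of the 24 arrays, and all points share arrays and tissue, so this is a description only.

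All the probes of the 3p strands showed the whole eye pattern. In whole eye, 8 of 8 probes were brighter on each myopia array than on each control array. The probes of a strand sum to the signal it was chosen by, so these counts add no support. The share of all probes on the array that separated in this way was not computed. For the 15-base probe of miR-16-1-3p the signals ran from 4.08 to 16.2 (median 9.12) on myopia arrays and from -2.95 to 2.22 (median -1.33) on control arrays. In retina, 6 of 8 probes did not overlap. The 2 that did were the shortest of miR-15a-3p, with 13 and 14 bases. The probe check used signals without scaling between arrays and looked only for brighter myopia or titled myopia arrays. By it, none of the 8 probes of the 5p strands separated the arms in either tissue. Scaled within whole eye, the summed miR-15b-5p signal did separate them, at 1.40 to 1.65 on myopia arrays against 1.28 to 1.39 on control arrays.

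The 2 miRNAs whose levels over the 24 arrays were most like both 3p strands were miR-467c-5p (r = 0.995 to miR-15a-3p and 0.997 to miR-16-1-3p) and miR-669b-5p (0.994 and 0.990). The third in each list was miR-669e-5p for miR-15a-3p (0.991) and miR-18b-5p for miR-16-1-3p (0.989). These points share the same arrays and tissues. miR-467c-5p, miR-669b-5p and miR-669e-5p were each detected on 12 of the 24 arrays, and miR-18b-5p on 5. miR-15a-3p sat at the floor on 11 arrays and miR-16-1-3p on 12, so these values are a description only.

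Control spots that carry no miRNA probe also differed between the whole eye arms. The corner-control spots averaged 324 ± 105 on whole eye myopia arrays and 161 ± 34.3 on whole eye control arrays (SD, n = 6 each; exact permutation test, two-sided, p = 0.00433). They ran from 226 to 487 on myopia arrays and from 137 to 230 on control arrays. Whole eye control replicate 6 had a corner signal of 230 with 3p signals of -1.62 and -3.24. Whole eye myopia replicate 4 had a corner signal of 226 with 3p signals of 33.4 and 23.2.

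In retina the corner spots gave 487, 576 and 362 on titled myopia arrays 1 to 3, against 451, 191 and 248 on titled control arrays 1 to 3 (exact permutation p = 0.2; 3 against 3 arrays cannot go below 0.10). Titled control replicate 1, whose 3p signals lay near those of the titled myopia arrays, also had the brightest corner spots of its group. In sclera they ran from 107 to 146 on titled myopia arrays and from 104 to 163 on titled control arrays (exact permutation p = 0.4). Negative-control spots went the other way in whole eye, averaging 1.59 ± 0.507 on myopia arrays and 2.76 ± 0.553 on control arrays (SD, n = 6 each; exact permutation p = 0.00216, the smallest that 6 against 6 arrays can give). The part of either kind of control spot in the 3p differences was not tested.

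**Figure D2:**
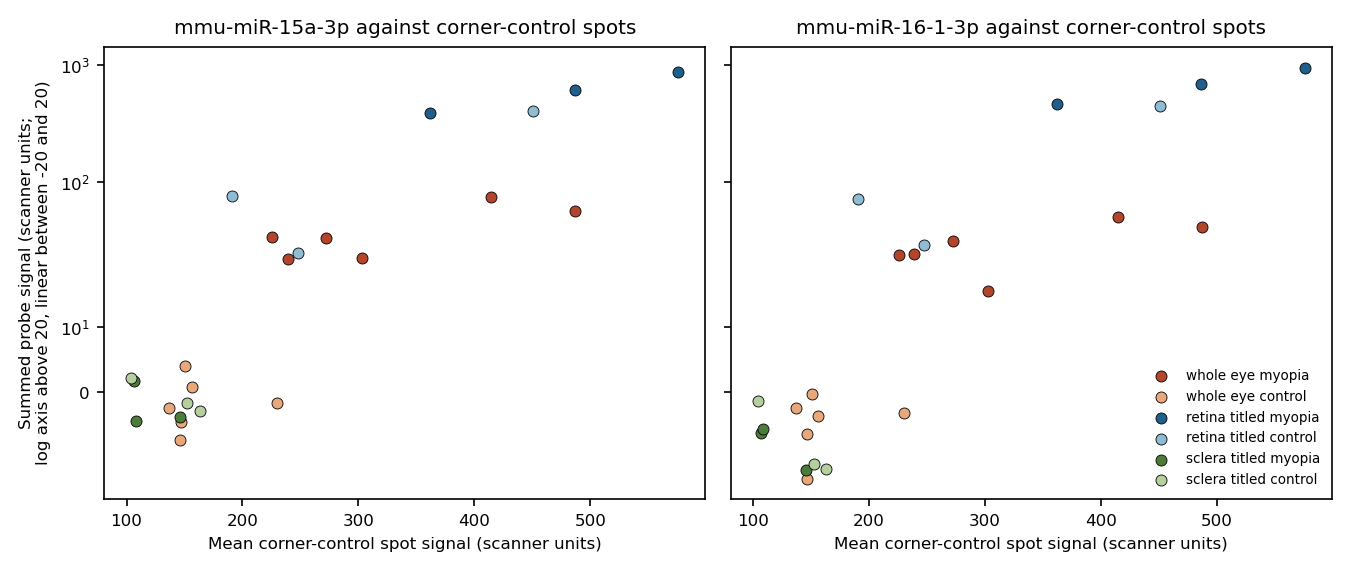
Summed probe signal of miR-15a-3p (left) and miR-16-1-3p (right) against the mean corner-control spot signal of the same array, both in scanner units, for the 24 arrays coloured by group. Whole eye control and sclera arrays had corner signals from 104 to 230, and the retina titled myopia arrays, brightest for the 3p strands, had 362 to 576.

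The 5p strands gave bright signals on every array, and their arm differences did not pass the test. In whole eye, relative signals use the 288 miRNAs detected on all 12 whole eye arrays. There none of the 4 passed, against 10.3% of the 341 miRNAs tested, all of them higher in myopia. Before adjustment the limma p was 0.0483 for miR-15a-5p, 0.00867 for miR-15b-5p, 0.177 for miR-16-5p and 0.0483 for miR-195-5p. miR-15a-5p, the guide of the miR-15a duplex, ran from 2.08 to 2.73 (median 2.41) on myopia arrays and from 2.15 to 2.26 (median 2.18) on control arrays. Its arms overlapped, with a wider spread among the myopia arrays. The log2 difference was 0.15 (SE 0.07, limma adjusted p = 0.202).

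miR-16-5p, the guide shared by both Mir16 hairpins, ran from 2.23 to 2.73 (median 2.51) on myopia arrays and from 2.25 to 2.51 (median 2.41) on control arrays. Its log2 difference was 0.08 (SE 0.06, limma adjusted p = 0.408). miR-195-5p, the guide of Mir195a, ran from 0.959 to 1.13 (median 1.07) on myopia arrays and from 0.903 to 1.04 (median 0.977) on control arrays. The difference was 0.12 on the log2 scale (SE 0.05, limma adjusted p = 0.202). Both strands overlapped between arms.

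miR-15b-5p, the guide of Mir15b, came nearest to a call. It had relative signals of 1.47, 1.40, 1.65, 1.45, 1.48 and 1.54 on myopia arrays 1 to 6, against 1.37, 1.34, 1.35, 1.39, 1.37 and 1.28 on control arrays 1 to 6. On this scale the arms did not overlap, as was the case in this direction for 6.32% of all miRNAs. The log2 difference was 0.15 (SE 0.05, 95% interval 0.05 to 0.25, limma adjusted p = 0.0777). It passed the threshold with a floor 2 times higher (adjusted p = 0.0346), without the filter on detection (0.0420), with array weights (0.0344) and without myopia replicate 2 (0.0357), all from limma.

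The size of the whole eye differences rested on which miRNAs set the scale. With the 237 miRNAs detected on all 24 arrays the log2 difference of miR-15b-5p was 0.06 (limma adjusted p = 0.915), its arms overlapped, and miR-16-5p was at -0.01. On that scale miR-15b-5p was itself the 75th percentile of myopia replicates 2, 5 and 6, so its values there were fixed by the scaling. The median difference of all tested miRNAs was 0.08 on the whole eye scale and -0.0025 on the scale of all 24 arrays. Of the 3 slides, slide 3 gave the widest 5p differences, at 0.33 for miR-15a-5p, 0.28 for miR-15b-5p, 0.16 for miR-16-5p and 0.29 for miR-195-5p.

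In retina the same 4 strands had log2 differences, titled myopia minus titled control, of -0.07 for miR-15a-5p (95% interval -0.50 to 0.36), -0.08 for miR-15b-5p (-0.51 to 0.35), -0.08 for miR-16-5p (-0.39 to 0.24) and -0.11 for miR-195-5p (-0.49 to 0.26). All adjusted p-values from limma were 0.826 or higher, and 0.0% of the 396 miRNAs tested passed. All 4 overlapped between arms, where 6.18% of all miRNAs lay higher without overlap and 2.3% lower. On the scale of the retina arrays miR-15a-5p had 4.01 to 4.33 (median 4.07) on titled myopia arrays and 3.45 to 5.06 (median 4.66) on titled control arrays. The intervals include a change of either sign, so a retinal difference up to their bounds would not have been seen.

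Sclera gave log2 differences of 0.39 for miR-15a-5p (95% interval -0.31 to 1.1), 0.02 for miR-15b-5p (-0.33 to 0.37), 0.03 for miR-16-5p (-0.36 to 0.41) and 0.11 for miR-195-5p (-0.27 to 0.49). None passed, with adjusted p-values of 0.887 or higher (limma), as was the case for all 311 miRNAs tested (0.0%; 7 had an unadjusted p under 0.05, against 20 of 396 in retina). All 4 overlapped between arms, where 7.33% of all miRNAs lay higher without overlap and 2.59% lower. The value for miR-15a-5p rested on 1 array. It had 1.64 to 1.71 on the scale of the sclera arrays in titled myopia, against 1.48, 1.70 and 0.810 in titled control, and the lowest of these was the dim array, replicate 3. Without that array the difference was 0.0045.

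**Figure D3:**
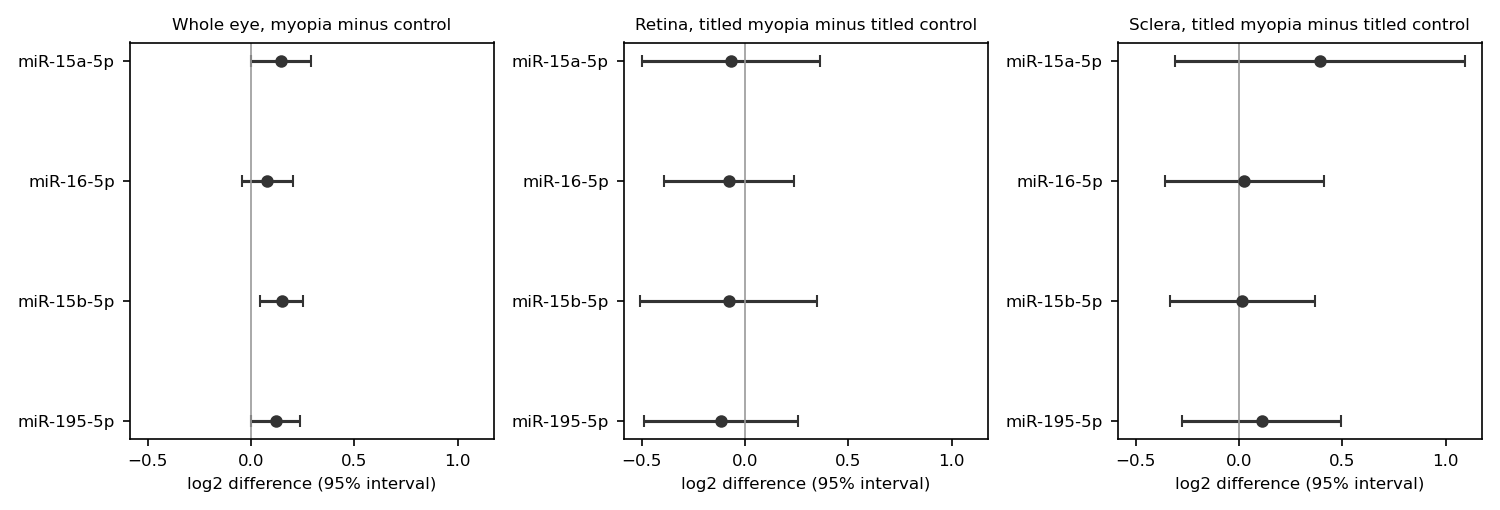
Log2 difference between arms of the 4 bright 5p strands in whole eye (left), retina (middle) and sclera (right), with 95% intervals from limma. The widest offset from 0 is that of miR-15a-5p in sclera, at 0.39, and the narrowest intervals are those of the 12 whole eye arrays.

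The 3p strands were chosen for their arm difference, and their ratios to their own guides describe it on another scale. The log2 ratio of miR-15a-3p to miR-15a-5p averaged -5.80 ± 0.648 on whole eye myopia arrays and -8.27 ± 0.0498 on whole eye control arrays (SD, n = 6 each), a gap of 2.48. In retina it averaged -3.01 ± 0.261 on titled myopia arrays and -5.62 ± 2.36 on titled control arrays (SD, n = 3 each), a gap of 2.61. The ratio of miR-16-1-3p to miR-16-5p differed by 2.21 in whole eye and 2.71 in retina. All 6 whole eye control arrays had both 3p strands at the floor, so the whole eye gaps depend on the floor and are no measured size.

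The 2 strands of a precursor were paired where their names were alike but for the arm. miR-16-1-3p, whose name has a locus number, was added by hand with miR-16-5p, and no other such name was sought. This gave 68 strands that were detected on fewer than 24 arrays while the other strand of their precursor was detected on all 24. In whole eye 3 of the 68 (4.41%) were higher on every myopia array than on any control array, namely both members and miR-101a-5p. In retina 4 of 68 (5.88%) separated in that direction, namely miR-16-1-3p, miR-101a-5p, miR-29a-5p and miR-342-5p. The members were chosen for this difference. Without them the count was 1 of 66 (1.52%) in whole eye, 3 of 66 (4.55%) in retina and 2 of 66 (3.03%) in sclera. Over all miRNAs the share was 5.03% in whole eye, 4.02% in retina and 4.74% in sclera, where 3.3% were lower.

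Between tissues the 5p strands differed clearly, and miR-195-5p went against the other three. On the scale of all 24 arrays miR-15a-5p averaged 2.59 ± 0.166 in retina titled myopia and 2.64 ± 0.460 in retina titled control (SD, n = 3 each). It averaged 1.55 ± 0.170 in whole eye myopia and 1.48 ± 0.0505 in whole eye control (n = 6 each). In sclera it averaged 1.22 ± 0.0788 in titled myopia and 1.07 ± 0.296 in titled control (n = 3 each). The order was thus retina, whole eye, sclera. For miR-15a-5p the arms of a tissue overlapped while neighbouring tissues did not. Without sclera titled control replicate 3 the whole eye minus sclera difference given below was 0.27.

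miR-16-5p followed the same order. Its relative signals were 2.58, 2.73 and 2.29 on retina titled myopia arrays and 2.46, 2.42 and 2.84 on retina titled control arrays. They ran from 1.46 to 1.78 in whole eye myopia and from 1.54 to 1.67 in whole eye control. The sclera arrays gave 1.28, 1.17 and 1.33 in titled myopia and 1.43, 1.45 and 1.28 in titled control. miR-15b-5p averaged 1.25 ± 0.0857 and 1.29 ± 0.223 in the retina titled myopia and titled control arrays, and 0.758 ± 0.108 and 0.836 ± 0.0223 in the sclera titled myopia and titled control arrays (SD, n = 3 each), with whole eye means between them. Whole eye and sclera arrays overlapped for this strand.

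miR-195-5p was highest in sclera instead. It had 0.791, 0.849 and 0.894 on retina titled myopia arrays and 0.806, 0.844 and 0.997 on retina titled control arrays, against 1.15, 1.14 and 1.21 on sclera titled myopia arrays and 1.15, 1.33 and 1.16 on sclera titled control arrays. In whole eye it averaged 0.677 ± 0.0595 on myopia arrays and 0.661 ± 0.0475 on control arrays (SD, n = 6 each), the lowest of the 3 tissues. Retina and sclera did not overlap.

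**Figure D4:**
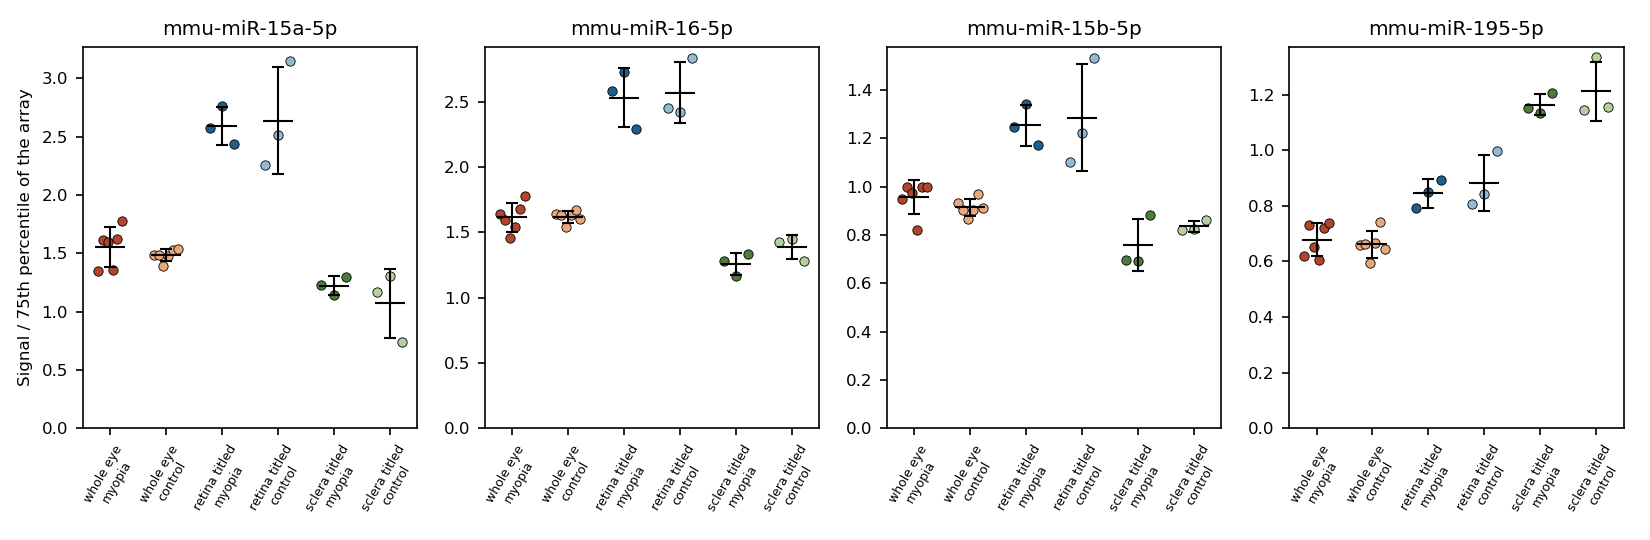
Relative signal (signal over the 75th percentile of the array) of the 4 bright 5p strands on each array by group, with bars for mean and SD. miR-15a-5p, miR-16-5p and miR-15b-5p are lower in whole eye than in retina and lowest in sclera on this scale, while miR-195-5p is highest in sclera; the arms of each tissue overlap.

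For retina minus sclera the log2 difference was 1.21 (SE 0.11, adjusted p = 2.37e-09) for miR-15a-5p, 0.95 (SE 0.06, adjusted p = 7.27e-12) for miR-16-5p and 0.67 (SE 0.08, adjusted p = 8.47e-08) for miR-15b-5p, by limma. For miR-195-5p it was -0.46 (SE 0.07, adjusted p = 4.43e-06). Of the 426 miRNAs tested, 58.7% were called higher and 30.5% lower in retina, so 3 of 4 strands higher and 1 of 4 lower is close to what the array as a whole gave. The median difference of all tested miRNAs was 0.81; relative to it miR-15a-5p and miR-16-5p stood above and miR-15b-5p and miR-195-5p below.

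Whole eye lay under retina for all 4, with log2 differences (whole eye minus retina) of -0.78 for miR-15a-5p, -0.43 for miR-15b-5p, -0.66 for miR-16-5p and -0.37 for miR-195-5p, each past the threshold, as were 65.0% of all tested miRNAs in that direction and 23.0% in the other (limma, largest adjusted p of the 4, 1.46e-05). Whole eye minus sclera gave 0.42, 0.24 and 0.29 for miR-15a-5p, miR-15b-5p and miR-16-5p and -0.83 for miR-195-5p. All 4 passed (limma, largest adjusted p 0.00393), where 40.1% of tested miRNAs were called higher and 30.8% lower.

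These tissue calls depended on the scaling. With the 75th percentile over all 696 miRNAs, the retina minus sclera difference was -0.11 for miR-15b-5p (limma adjusted p = 0.369) and 0.16 for miR-16-5p (0.166). With no scaling between arrays miR-195-5p was higher in retina, at 0.62 (limma adjusted p = 0.0126), where the median of all tested miRNAs was 1.79. Its whole eye minus sclera difference then was -0.18 (limma adjusted p = 0.405), and -0.20 in the authors' value table (0.342). With normexp its retina minus sclera difference was -0.23 (limma adjusted p = 0.0890), and with quantile normalization its whole eye minus retina difference was -0.11 (0.0688). With the percentile over all miRNAs, all 4 strands missed the threshold in whole eye minus retina, and miR-15a-5p, miR-15b-5p and miR-16-5p missed it in whole eye minus sclera. miR-15a-5p was called higher in retina than in sclera under every alternative with a limma test.

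Other strands of the family differed between tissues. Of a list of 7 further family and cluster strands on the array, 3 were tested in whole eye, 2 in retina and 4 in sclera. By limma 0 of them were called in each, against 10.3% of all tested miRNAs in whole eye and 0.0% in retina and in sclera. miR-497-5p, which has the family seed and is made beside miR-195, had a log2 difference of 0.16 in whole eye (SE 0.05, limma adjusted p = 0.0963). In retina minus sclera 4 of the 4 tested strands of the list were called lower in retina, against 30.5% of all tested miRNAs. These included miR-497-5p at -0.78 (SE 0.08) and miR-322-5p, which has the family seed, at -2.89 (SE 0.13). Both passed (limma, largest adjusted p 6.99e-09). The others were miR-503-5p, made beside miR-322, at -3.32, and miR-322-3p. Each was detected on 0 of 6 retina arrays, against 6 and 5 of 6 sclera arrays. Their retina values lay at the floor, so the sizes depend on it. They entered the test only through groups where they were brighter, so their calls add no support. In retina minus sclera miR-195-5p and its neighbour miR-497-5p had the same sign.

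Over the 24 arrays miR-16-5p levels were most like those of miR-30a-5p (r = 0.988), let-7g-5p (0.985) and miR-1839-5p (0.979). Within the family miR-15a-5p correlated with miR-16-5p at r = 0.938 and with miR-15b-5p at 0.887, and with miR-195-5p at -0.20. These values span 3 tissues on shared arrays and describe the tissue pattern already given.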

How the data were processed

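MicroRNA levels of 24 arrays were taken from the deposited scanner files, where each spot has an intensity with background subtracted, per the file headers; the software was Agilent Feature Extraction 11, per the submitters' processing notes. The authors' series value table holds log2 values per probe and served as an alternative; how it was made is not stated. Flagged spots were left out, spots averaged per probe, and probes summed per miRNA. Each array was scaled to its 75th percentile of sums, taken where a miRNA was detected throughout the fit, floored at the median of the arrays' lowest detected signals and log2 transformed. Testing required detection in 2 of every 3 arrays of some group. Tests used limma 3.58.1 (R 4.3.3; two-sided, Benjamini-Hochberg over all miRNAs tested, threshold 0.05) and, for control spots, exact permutation. Only the limma test with its adjustment was tried on simulated data, made as log2 values. The steps before it and the permutation test were not. Each tissue's arms were fitted alone, and tissues over 24 arrays in 6 groups. The members and lists were chosen with earlier results of these data known. Named miRNAs are all members, the family list, and for miR-15a-3p, miR-16-1-3p and miR-16-5p the 3 miRNAs of highest r. Also named are strands with bases matching the 3p probes. The dim partner strands that separated the arms in whole eye or retina are named too, and were picked from these data. Alternatives changed scaling, background, probe summary, floor, filter, blocks, weights and replicates. The labels do not say whether replicate numbers pair the arrays, and the fits were unpaired. Same-number correlations of deviations ran from -0.369 to 0.64, which did not settle it. Array coordinates are mm9 per the file headers and were not used; those printed are RefSeq's GRCm38.p6. Array number and signal over background limit precision.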

Additional observations from a re-analysis of the deposited data

Results flagged for a closer look

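Of 16 sets of 6 whole eye arrays examined for a single array far from the rest, 2 held one, and chance alone gives about 1 in 20. The corner-control signal of whole eye control replicate 6 was 229.8, against 156.3 for the next array of its group, a gap of 0.789 of the group's range where the critical value is 0.625. Its 3p signals were at background. The log2 relative signal of miR-15b-5p on whole eye myopia replicate 4 was -0.2869 on the scale of all 24 arrays, against -0.0766 for the nearest array, a gap of 0.733 of the range. On myopia replicates 2, 5 and 6 the value was 0 because the signal equalled the array's 75th percentile.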

How the results depend on the processing

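Of 1290 alternative values, 1143 were labelled as unchanged. These kept their direction and side of the threshold, or moved by less than the replicate spread. Counts of calls were judged instead by a fixed ratio to the main count. Counts of called 5p strands use the same tests as the single strands, so the values are not independent. The causes of the changes below were not tested; the scaling to all 24 arrays was added after seeing the data. In the whole eye arm, the 75th percentile over all miRNAs gave -0.065, -0.062, -0.13 and -0.090 for miR-15a-5p, miR-15b-5p, miR-16-5p and miR-195-5p. For miR-16-5p quantile normalization gave -0.013, no scaling -0.040, the value table -0.051, the scaling to all 24 arrays -0.0066 and slide 2 -0.021; for miR-195-5p the value table gave -0.0057. Of the 4 5p strands 1 was called with a floor 2 times higher, 1 with no filter and 2 with array weights (0 to 1 when one array was left out: miR-15a-5p without myopia replicate 1, miR-15b-5p without myopia replicate 2). For miR-15a-3p normexp gave 0.21, total gene signal 0.89, 1.15 in the value table, the higher floor 1.06 and slide 2 2.79; for miR-16-1-3p these gave 0.19, 0.41, 1.14, 0.73 and 2.27, and slide 1 1.24. Calls over all miRNAs numbered 96 with quantile normalization, 22 with normexp and 15 when detection on every array was required, against 35.

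In the retina arm, for miR-15a-5p, miR-15b-5p and miR-16-5p, quantile normalization gave 0.019, 0.079 and 0.025. For those and miR-195-5p, no scaling gave 0.11, 0.095, 0.099 and 0.061, the deposited values 0.11, 0.083, 0.10 and 0.073, the phenotype field 0.067, 0.079, 0.075 and 0.11, and slide 1 0.24, 0.22, 0.12 and 0.020. For miR-15a-5p normexp gave 0.0052, and leaving out one array -0.28 to 0.0015. For miR-15a-3p and miR-16-1-3p normexp gave 0.51 and 0.62, the phenotype field -2.54 and -2.63, slide 1 0.52 and 0.55, slide 3 4.22 and 4.24, and leaving out one array 1.48 to 3.55 and 1.65 to 3.67. With array weights 64 miRNAs were called, and 0 to 55 when one array was left out (55 without titled control replicate 1), against 0.

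In the sclera arm, for miR-15a-5p, miR-15b-5p, miR-16-5p and miR-195-5p, the phenotype field gave -0.39, -0.016, -0.027 and -0.11 and slide 2 -0.048, -0.10, -0.17 and -0.087. For miR-15b-5p and miR-16-5p the percentile over all miRNAs gave -0.050 and -0.039, array weights -0.057 and -0.10, and slide 1 -0.15 and -0.079. For those and miR-195-5p quantile normalization gave -0.021, -0.088 and -0.068, no scaling -0.15, -0.14 and -0.054, the value table -0.16, -0.15 and -0.060, and the scaling to all 24 arrays -0.15, -0.14 and -0.055. Leaving out one array gave -0.10 to 0.086, -0.17 to 0.11 and -0.064 to 0.23.

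Between tissues, the percentile over all miRNAs gave -0.11 for miR-15b-5p in retina minus sclera, and 0.11 for miR-15b-5p and 0.18 for miR-195-5p in whole eye minus retina. It left 2 of 4 5p strands called in retina minus sclera, 0 in whole eye minus retina and 1 in whole eye minus sclera. In retina minus sclera miR-195-5p was at 0.62 with no scaling and 0.59 in the value table. For miR-15a-3p and miR-16-1-3p normexp gave -0.26 and -0.17, in the value table they were 3.03 and 3.44, slide 1 5.95 and 6.09, and slide 3 3.52 and 3.82. Requiring detection on every array left 215 calls in retina minus sclera, 211 in whole eye minus retina and 192 in whole eye minus sclera; normexp left 163 in whole eye minus retina. The whole eye corner-spot difference was 118, 304 and 65.4 within slides 1, 2 and 3, against 162.

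With a replicate block, 0 of the 4 5p strands were called in each arm, miR-15b-5p in whole eye had a limma adjusted p of 0.189, and 45 miRNAs were called in whole eye, against 35; all 4 strands stayed called between tissues. In retina and sclera the number is also the slide. Signal over background limits the 3p strands, which were called detected on 8 of 24 arrays.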
